A study of Mus musculus with 8 samples.

Results

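The ATP-binding cassette (ABC) transporter genes were followed in the ovaries of lethal yellow (LY) mice given pioglitazone or vehicle. Members were all genes with an array symbol of Abca, Abcb, Abcc, Abcd, Abce, Abcf or Abcg followed by a number, and 42 of the 18069 named genes met this, with 52 of the 21615 probes that name a single gene. Each gene is given by its brightest probe (highest mean over the 8 arrays), and Abcb4 and Abca1 each had 1 probe. A further probe named both Abcg4 and Prph2 and was left out.

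Pioglitazone, a thiazolidinedione that activates the nuclear receptor PPARγ, was gavaged daily to 4 female LY mice, and 4 female LY mice received the DMSO vehicle alone. The series text gives 0.1 mg of pioglitazone per day, and the paper's methods give a smaller daily dose, so the dose is not settled. Both groups were C57BL/6J mice with the Ay/a genotype, in which the agouti protein is made throughout the body and obesity and insulin resistance develop with age, and both were treated for 60 days, from 120 to 180 days of age. Whole ovaries were hybridised singly, with 1 CodeLink array per mouse. Every mouse carried the Ay allele, and BL mice left untreated were not analysed here, so the comparison is of treatment within obese mice.

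Most ABC proteins are membrane pumps that use ATP to move a substrate across a membrane, and they are grouped by sequence into subfamilies A to G. The A and G subfamilies move mainly sterols, phospholipids and retinoids, the B and C subfamilies drugs, bile components, conjugates and peptides, and the D subfamily fatty acids into peroxisomes. The E and F members have no membrane part and act in translation. In the ovary, cholesterol handling by such pumps serves steroid hormone synthesis, and drug efflux pumps are known in its blood vessels.

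The deposited values are intensities in relative units, in which the array median lay between 1.007 and 1.014. Between 82.5% and 83.9% of probes on an array reached 0.2 units, the limit of sensitivity that the study set, and 47 to 211 spots per array had no value. Correlations of log2 values between arrays ran from 0.949 to 0.987. Of the 42 members, 31 reached 0.2 units on all 8 arrays and 2, Abca16 and Abcg5, stayed under 0.2 on all 8. Most markers of ovarian cell types were present, but endothelial Cdh5 stayed under 0.2 on all 8 arrays and Foxj1 of the oviduct was too dim to test. Summed oocyte markers were at 68.8 to 115 units in pioglitazone-treated mice and 68.5 to 101 units in vehicle-treated mice. The oocyte marker Bmp15 had values only in pioglitazone mice 3 and 4 and entered only their sums. Summed granulosa markers were at 74.9 to 145 units in pioglitazone-treated mice and 72.6 to 101 units in vehicle-treated mice. Of the 4 liver markers, Alb and Cyp3a11 were under 0.2 on all 8 arrays, Apoh averaged 0.209 units with pioglitazone and 0.216 units with vehicle, and Ttr averaged 0.338 units with pioglitazone and 0.373 units with vehicle.

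Groups were compared with limma over the 30634 probes with 3 or more values per group whose mean reached 0.2 units in either group. By limma, 0 probes passed an adjusted p under 0.05 (the smallest was 0.599), and the same was found with the methods' t-test. By limma, 603 probes were higher and 1082 lower at an unadjusted p under 0.05, and with the methods' t-test 669 were higher and 1461 lower. A probe past this unadjusted threshold is here called higher or lower, and no such call survives the adjustment for the number of probes. With 4 mice against 4, the smallest p of the exact permutation test is 0.0286, reached wherever the groups do not overlap. The paper's methods give housing at 4 mice per cage, but nothing tells which of these mice shared a cage or litter. If each group had its own cage, cage and treatment cannot be told apart. The p-values measure only the spread between these mice.

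Of the 42 members, 38 were tested, and Abcb4 alone was called higher while Abcc8 alone was called lower with pioglitazone. The calls come to 5.26% of the members tested, and 5.50% of all probes tested were called in either direction, 1.97% higher and 3.53% lower, so the number of calls among the ABC genes was close to the background. Groups did not overlap for Abcb4, which was higher, and for Abcc8 and Abcf2, which were lower, and after quantile normalization or cyclic loess Abcf2 was no longer among them. Over all probes with a value on every array, 1.45% had non-overlapping groups with pioglitazone higher and 3.13% with pioglitazone lower. Log2 fold changes of the members (pioglitazone over vehicle) had a median of -0.01 and ran from -0.48 to 1.59, with 17 above 0 and 21 below, while the median over all tested probes was -0.03, with 44.3% above 0. The absolute log2 fold change was under 0.5 for 37 of the 38 members (97.4%) and for 94.0% of all tested probes. Abcb4 and Abcc12 passed the filter on dim probes through the pioglitazone group alone, since their vehicle means were under 0.2 units. Abcb4 could thus enter the test only by being higher with pioglitazone, and its call and size are given as a description.

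**Figure D1:**
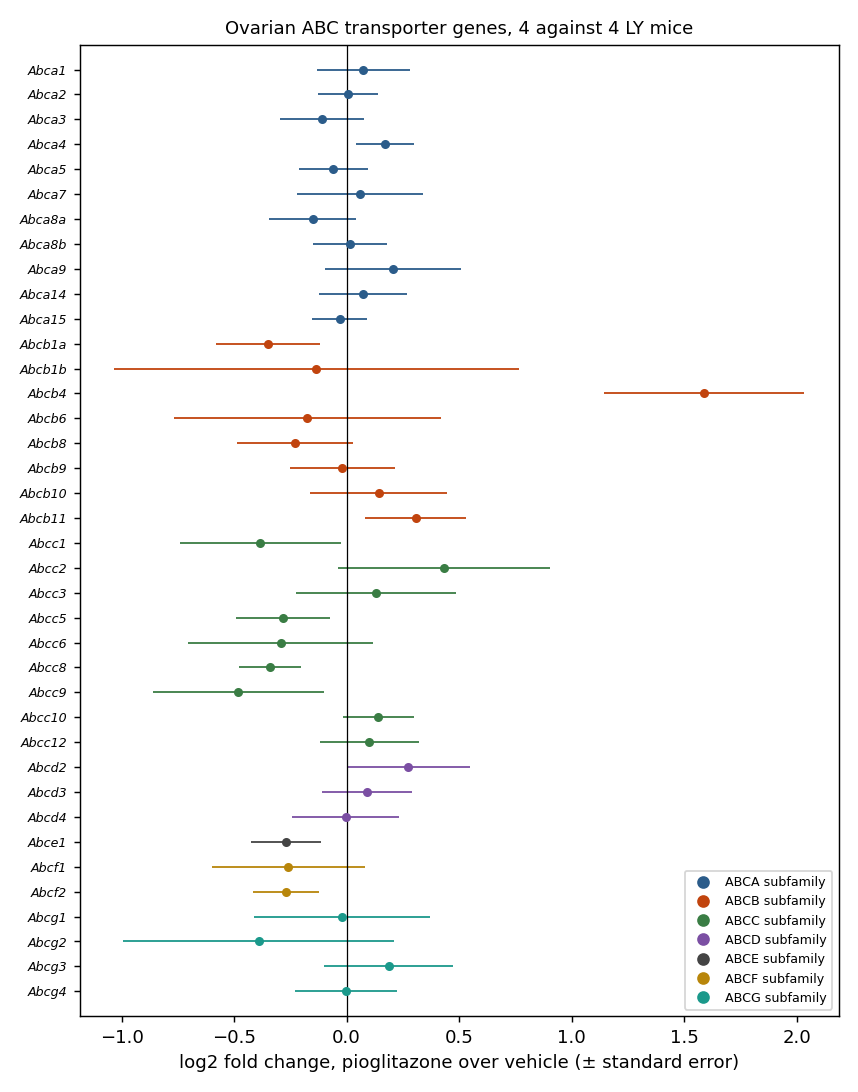
Log2 fold change, pioglitazone over vehicle, of the 38 ABC genes tested (1 row per gene, coloured by subfamily), with bars of 1 standard error from limma, 4 mice per group. Abcb4 lies at 1.59, and the other genes lie between -0.48 and 0.43.

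Abcb4 encodes the flippase that moves phosphatidylcholine into bile at the hepatocyte membrane, and it is the last of a run of neighbouring genes on mouse chromosome 5, after Abcb1a and Abcb1b. Those neighbours encode the rodent P-glycoproteins, which pump a wide range of drugs and other lipophilic molecules out of cells. The sequences around the starts of the 3 genes are shown because the genes adjoin each other and only Abcb4 was called. Each holds 250 bases before and 50 bases after the RefSeq start (GRCm38.p6, plus strand, 5′ to 3′), and capitals mark GGGCGG (the GC box) and CCAAT on either strand.
Abcb4, chr5:8893471-8893770: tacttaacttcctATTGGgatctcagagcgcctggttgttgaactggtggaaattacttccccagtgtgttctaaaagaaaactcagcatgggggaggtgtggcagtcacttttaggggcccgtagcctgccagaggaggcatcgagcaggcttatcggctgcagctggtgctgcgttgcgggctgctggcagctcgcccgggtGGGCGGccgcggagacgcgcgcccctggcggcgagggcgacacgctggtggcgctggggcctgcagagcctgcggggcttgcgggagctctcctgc
Abcb1b, chr5:8797897-8798196: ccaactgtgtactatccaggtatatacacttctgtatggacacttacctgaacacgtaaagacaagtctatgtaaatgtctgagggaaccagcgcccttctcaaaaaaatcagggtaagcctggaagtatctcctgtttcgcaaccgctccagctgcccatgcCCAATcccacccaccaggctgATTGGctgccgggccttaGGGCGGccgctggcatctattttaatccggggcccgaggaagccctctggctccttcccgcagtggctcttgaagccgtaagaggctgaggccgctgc
Abcb1a, chr5:8566841-8567140: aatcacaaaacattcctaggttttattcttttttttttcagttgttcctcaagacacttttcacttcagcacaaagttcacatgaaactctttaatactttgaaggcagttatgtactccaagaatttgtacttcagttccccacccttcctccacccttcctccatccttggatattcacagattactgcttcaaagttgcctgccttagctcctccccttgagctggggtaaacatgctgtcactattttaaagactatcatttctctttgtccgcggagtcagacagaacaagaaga
The Abcb4 start lay in sequence of 64.0% GC, the Abcb1b start in 55.0% and the Abcb1a start in 40.3%. Abcb4 held 1 GC box and 1 CCAAT, Abcb1b held 1 and 2, and Abcb1a held 0 and 0. GGGCGG occurs in 35.7% and CCAAT in 37.4% of the 32851 RefSeq promoter windows of this length, so neither motif is rare. The nuclear receptor half-site AGGTCA is in 16.3% of windows and in 0 of these 3, and its direct repeat with 1 base between, AGGTCANAGGTCA, the form that PPARγ binds with its partner RXR, is in 0.0396% of windows. Promoter windows were matched for 32 of the 42 members, 38 windows in all, of which 7 held AGGTCA on either strand and 0 held the repeat. An exact string this rare would be missing from most sets of 38 windows, so its absence says nothing about PPARγ binding. The genes with a half-site were Abcb11, Abcb6, Abcc10, Abcc2 and Abcg2, and none of them was called in the fit that leaves mouse number out.

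Abcb4 read 0.647, 0.246, 0.403 and 0.380 units in pioglitazone mice 1 to 4, against 0.171, 0.138, 0.055 and 0.232 units in vehicle mice 1 to 4. All 4 pioglitazone-treated mice lay above the limit of 0.2 and above every vehicle-treated mouse, of which 3 lay under it. The mean was 0.419 ± 0.167 units with pioglitazone and 0.149 ± 0.0740 units with vehicle (SD, n = 4 each), with 2.82 as their ratio, and the log2 fold change was 1.59 ± 0.44 (SE, limma unadjusted p = 0.0056, adjusted p = 0.837). The 95% interval of the log2 fold change ran from 0.59 to 2.59. The vehicle mean lay under the limit of sensitivity, so the size of the ratio is loosely measured. Abcb4 belongs to the genes that the study picked from these same arrays, so the difference is not independent evidence. The log2 fold change was 0.93 with values floored at the limit of 0.2, 1.02 with array weights, and between 1.17 and 1.86 with 1 mouse left out. None of these fits is a sign of stability, since the probe entered through its high group, and where 0.2 units were asked of every array it could not be tested.

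The 2 neighbouring genes were not called. Abcb1a read 13.5, 8.91, 10.8 and 9.95 units with pioglitazone and 17.5, 12.9, 16.6 and 9.14 units with vehicle. The groups overlapped, with vehicle mouse 4 among the lowest of all, and the log2 fold change was -0.35 ± 0.23 (SE, 95% interval -0.87 to 0.17). Without vehicle mouse 4, Abcb1a was called lower by limma, with a log2 fold change of -0.54 and an unadjusted p of 0.0268. Abcb1b read 0.297, 0.611, 3.64 and 0.193 units with pioglitazone and 0.311, 1.55, 1.16 and 0.331 units with vehicle. Mice 1 and 4 were low and mice 2 and 3 higher in both groups, and the highest value was that of pioglitazone mouse 3. The mean with pioglitazone was 1.42 times the mean with vehicle, and the log2 fold change was -0.13 ± 0.90, so the direction depends on the scale. The probe sequences were not used here, so signal shared between the probes of these related genes was not tested.

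The other B members were not called. Abcb11, the bile salt export pump of the liver, averaged 0.480 units with pioglitazone and 0.400 units with vehicle, with a log2 fold change of 0.31 ± 0.22. The mitochondrial transporter Abcb10, which takes part in heme synthesis in red cell precursors, read 3.66, 4.59, 4.19 and 3.16 units with pioglitazone and 4.88, 4.45, 1.79 and 3.86 units with vehicle. Its groups overlapped, and the sign of its log2 fold change (0.14) turned to -0.18 without vehicle mouse 3. Abcb6, Abcb8 and Abcb9 had log2 fold changes between -0.23 and -0.02, and of the 8 B members 3 lay above 0 and 5 below (median -0.08).

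**Figure D2:**
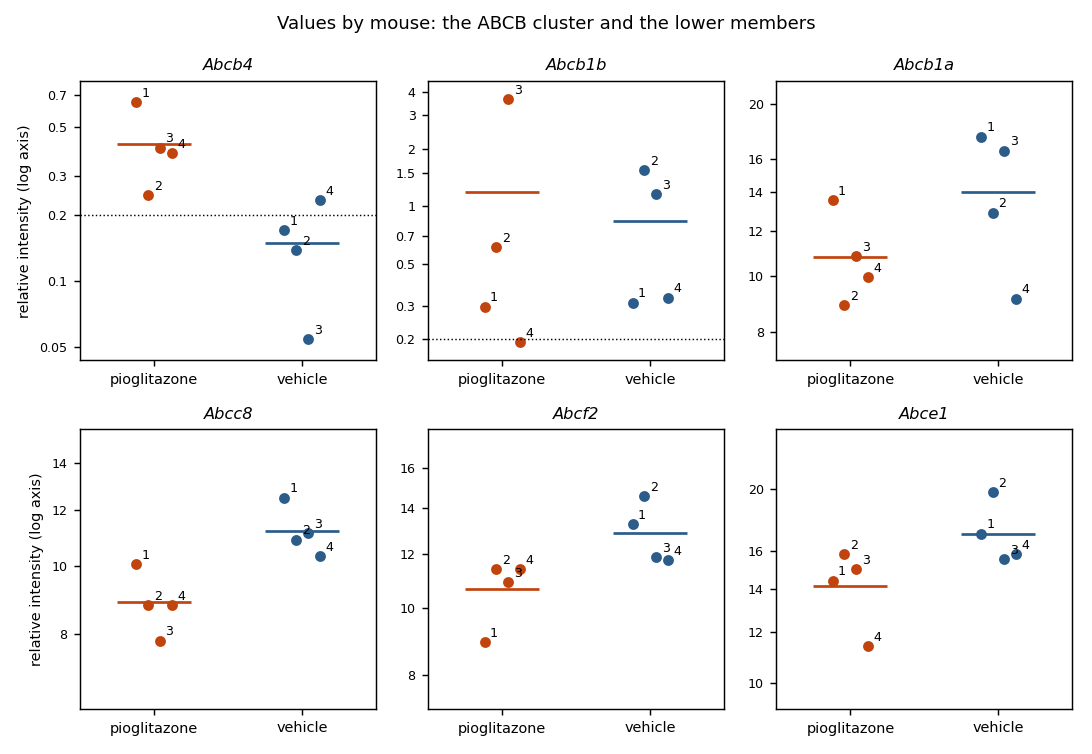
Relative intensity (log axis, a scale of its own in each panel) of 6 ABC genes in pioglitazone-treated mice (left, orange) and vehicle-treated mice (right, blue), with mouse numbers beside the points, the arithmetic group mean as a bar and the limit of 0.2 units dotted where it is in range. The groups do not overlap for Abcb4, Abcc8 and Abcf2, and overlap for Abcb1a, Abcb1b and Abce1.

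The C subfamily holds the sulfonylurea receptors Abcc8 and Abcc9, the regulatory subunits of ATP-sensitive potassium channels, and the multidrug resistance proteins that export conjugated compounds. The brightest Abcc8 probe read 10.1, 8.81, 7.84 and 8.81 units in pioglitazone-treated mice and 12.5, 10.9, 11.1 and 10.3 units in vehicle-treated mice. All pioglitazone-treated mice lay below all vehicle-treated mice, though only narrowly. The mean was 8.88 ± 0.915 units with pioglitazone and 11.2 ± 0.920 units with vehicle (SD, n = 4 each), with 0.792 as their ratio, and the log2 fold change was -0.34 ± 0.14 (limma unadjusted p = 0.0349, adjusted p = 0.837). The other Abcc8 probes were not called. The first of them averaged 2.39 units with pioglitazone and 2.43 units with vehicle (log2 fold change -0.03), and the dimmer one 0.330 units with pioglitazone and 0.257 units with vehicle (log2 fold change 0.33). Averaged over its probes, Abcc8 had a log2 fold change of -0.01. The call was also lost when any of pioglitazone mice 2, 3 or 4 or vehicle mice 1 or 2 was left out, with log2 fold changes from -0.35 to -0.28 in those fits, and after quantile normalization (-0.26) or cyclic loess (-0.25).

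Abcc9 read 0.081, 0.290, 0.302 and 0.231 units with pioglitazone and 0.298, 0.292, 0.243 and 0.294 units with vehicle. Pioglitazone mouse 1 lay under the limit and the other mice between 0.231 and 0.302 units, and the log2 fold change of -0.48 ± 0.38 became -0.04 without that mouse. The channel pores that Abcc8 and Abcc9 join, Kcnj8 and Kcnj11, were both measured and neither was called (median log2 fold change -0.02).

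Among the exporters, Abcc1, which pumps out glutathione conjugates and leukotriene C, read 1.16, 3.36, 3.74 and 2.23 units with pioglitazone and 2.16, 3.74, 3.47 and 3.37 units with vehicle. Mouse 1 was the lowest in both groups, and the log2 fold change was -0.38 ± 0.36. Abcc6, whose loss in humans causes the calcifying disease pseudoxanthoma elasticum, read 0.268, 0.396, 0.749 and 0.290 units with pioglitazone and 0.305, 0.583, 0.871 and 0.335 units with vehicle. Each pioglitazone mouse lay below the vehicle mouse of its number, and the groups overlapped (log2 fold change -0.29 ± 0.41). Abcc2, an exporter of conjugates into bile, read 0.132, 0.226, 0.400 and 0.281 units with pioglitazone and 0.080, 0.165, 0.377 and 0.203 units with vehicle. Each pioglitazone mouse lay above the vehicle mouse of its number, near the limit of sensitivity, and with the mouse number as a block Abcc2 was called higher by limma (log2 fold change 0.43, unadjusted p = 0.026, adjusted p = 0.575), and 8.60% of all probes were called in that fit. Without the block it was not called (unadjusted p = 0.381 in limma). Abcc5, which exports cyclic nucleotides, averaged 10.4 units with pioglitazone and 12.7 units with vehicle, but its second probe had a log2 fold change of 0.15 against -0.28 for the brightest. Abcc3, Abcc10 and Abcc12 lay between 0.10 and 0.14. Of the 9 C members 4 lay above 0 and 5 below, and the median of -0.28 is the value of the brightest Abcc5 probe.

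The E and F members act on ribosomes and not as pumps, and all 3 measured were lower in mean with pioglitazone. Abcf2 read 8.93, 11.4, 10.9 and 11.4 units with pioglitazone and 13.3, 14.5, 11.8 and 11.7 units with vehicle. The groups did not overlap, the gap being the narrow one between pioglitazone mouse 2 or 4 and vehicle mouse 4, and the mean was 10.7 units with pioglitazone and 12.8 units with vehicle. The log2 fold change was -0.27 ± 0.15 and it was not called by limma (unadjusted p = 0.0959), although the exact permutation test gave its smallest value (two-sided p = 0.0286). On linear values Abcf2 was called lower (limma, unadjusted p = 0.037). Abce1, which splits ribosomes into their subunits after termination, read 14.4, 15.8, 15.0 and 11.4 units with pioglitazone and 17.0, 19.7, 15.6 and 15.8 units with vehicle. The groups overlapped at pioglitazone mouse 2, which lay above vehicle mouse 3 and level with vehicle mouse 4 at 15.8 units. The log2 fold change of Abce1 was -0.27 ± 0.16 (two-sided exact permutation p = 0.0857). Abcf1 averaged 4.80 units with pioglitazone and 5.31 units with vehicle, with its lowest value in mouse 1 of each group. Of 8 translation partners tested, 4 lay above 0 and 4 below, and 0 were called in either direction by limma at the unadjusted p.

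No lipid pump of the A and G subfamilies was called. Abca1, which loads cholesterol onto apolipoprotein A-I and is a textbook target of the liver X receptors, read 0.512, 0.599, 0.791 and 0.555 units with pioglitazone and 0.555, 0.789, 0.539 and 0.463 units with vehicle. The groups overlapped over most of their range, with means of 0.614 ± 0.123 units with pioglitazone and 0.587 ± 0.141 units with vehicle (SD, n = 4 each). Its log2 fold change was 0.07 ± 0.21, with a 95% interval from -0.39 to 0.54, which spans differences in either direction. Abcg1, which passes sterols to lipoprotein particles and shares that regulation, read 0.787, 3.16, 1.83 and 1.18 units with pioglitazone and 1.34, 2.15, 1.26 and 1.57 units with vehicle. The pioglitazone values spanned the vehicle values on both sides, the ratio of means was 1.10, and the log2 fold change was -0.02 ± 0.39. Of the 11 tested genes of the liver X receptor and lipid efflux list, 4 lay above 0 and 7 below (median log2 fold change -0.26) and 0 were called by limma at an unadjusted p under 0.05. With the mouse number as a block limma called 3 of them, against 8.60% of all probes and 8.5% of all partner genes tested. Mylip was higher (unadjusted p = 0.0433), and Nr1h3 (unadjusted p = 0.0261) and Scarb1 (unadjusted p = 0.0383) lower, all at adjusted p = 0.575. Mylip was also called higher with quantile normalization, cyclic loess, array weights, linear values, 0.2 units in every array and without vehicle mouse 2. It was not called in the main fit or in the rest of the 22 alternatives. Leaving out 1 mouse called Scarb1 (pioglitazone mouse 3), Lcat (vehicle mouse 2) or Nr1h3 (vehicle mouse 4) lower.

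**Figure D3:**
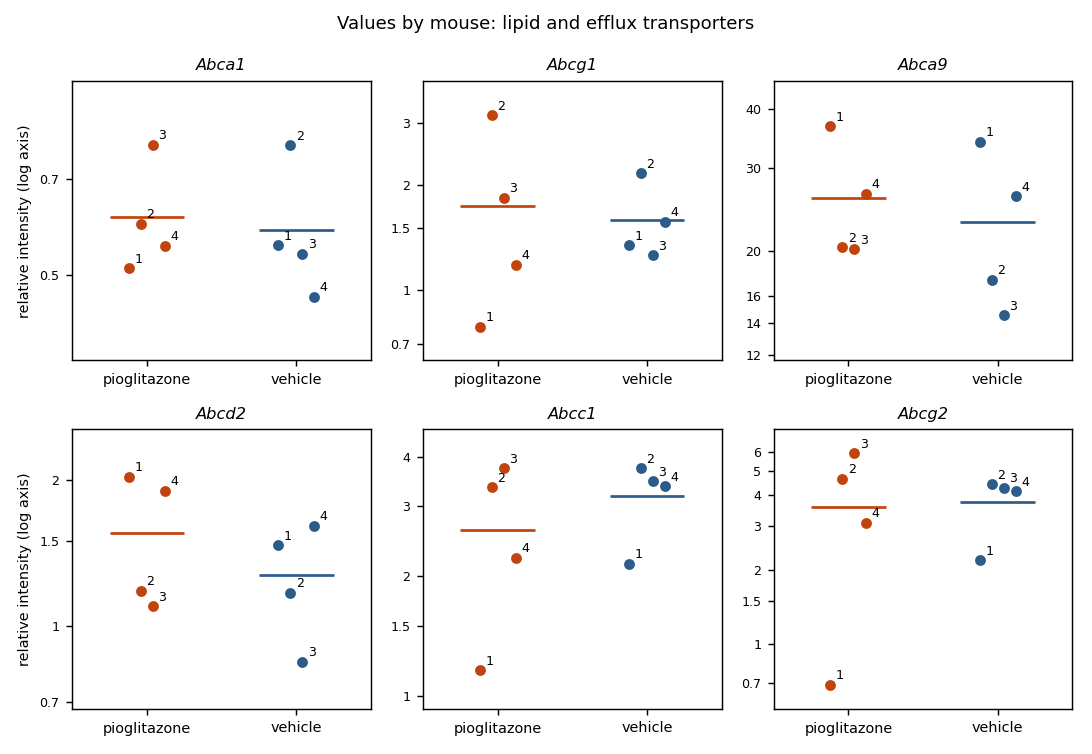
Relative intensity (log axis, a scale of its own in each panel) of 6 lipid and efflux transporter genes in pioglitazone-treated mice (left, orange) and vehicle-treated mice (right, blue), with mouse numbers beside the points and the arithmetic group mean as a bar. The groups overlap for all 6 genes, and mouse 1 is lowest in both groups for Abcc1 and Abcg2 and highest in both for Abca9.

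Other A members were close to equal between groups. Abca3, a lipid transporter of lung surfactant bodies, read 5.91, 4.77, 5.72 and 5.85 units with pioglitazone and 8.23, 5.88, 4.73 and 5.60 units with vehicle, and its second probe gave a log2 fold change of -0.08 beside -0.11. Abca4, a retinoid transporter of photoreceptors, read 1.77, 1.89, 1.68 and 1.93 units with pioglitazone and 1.53, 1.51, 1.62 and 1.81 units with vehicle. Each pioglitazone mouse lay above the vehicle mouse of its number, the groups overlapped through vehicle mouse 4, and the log2 fold change of 0.17 ± 0.13 was not called (limma unadjusted p = 0.221, the smallest of the A subfamily). Abca9 read 36.8, 20.3, 20.1 and 26.5 units with pioglitazone and 34.1, 17.3, 14.6 and 26.1 units with vehicle. Its order of mice was the same in both groups, 1, 4, 2 and 3 from high to low, and the log2 fold change was 0.21 ± 0.30. Abca9 lies in a run of neighbours on chromosome 11 with Abca8b, Abca8a, Abca6 and Abca5, of which Abca6 was too dim to test and the other 3 had log2 fold changes between -0.15 and 0.01. Of the 11 A members tested, 7 lay above 0 and 4 below (median 0.01).

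Among G members, Abcg2, an exporter of urate and many drugs, read 0.687, 4.67, 5.90 and 3.10 units with pioglitazone and 2.19, 4.44, 4.30 and 4.15 units with vehicle. Mouse 1 was the lowest in both groups, and the log2 fold change of -0.39 ± 0.60 turned to 0.28 without pioglitazone mouse 1. Abcg3 read 0.495, 0.804, 0.682 and 0.573 units with pioglitazone and 0.773, 0.516, 0.321 and 0.721 units with vehicle, again with overlap (log2 fold change 0.19 ± 0.29). Abcg4 averaged 5.04 units with pioglitazone and 4.98 units with vehicle. Abcg5 and Abcg8, which form the sterol exporter of liver and gut and adjoin each other on chromosome 17, were too dim to test, as was Abca16.

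The peroxisomal transporters were measured through Abcd2 and Abcd3, both of which import fatty acids for oxidation. The remaining D member measured, Abcd4, is a lysosomal cobalamin transporter. Abcd2 read 2.03, 1.18, 1.10 and 1.90 units with pioglitazone and 1.47, 1.17, 0.846 and 1.61 units with vehicle. Each pioglitazone mouse lay above the vehicle mouse of its number, and the groups overlapped (log2 fold change 0.27 ± 0.27, 95% interval -0.34 to 0.89). Abcd3 read 0.644, 0.602, 0.575 and 0.482 units with pioglitazone and 0.420, 0.688, 0.654 and 0.444 units with vehicle, with mice 1 and 4 higher and mice 2 and 3 lower than their vehicle counterparts. Of 8 other peroxisomal genes tested, 3 lay above 0 and 5 below, and 0 were called by limma at the unadjusted p.

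Genes that work with ABC proteins were looked at in 8 lists, 62 genes measured and 59 tested. Of these, 0 were called higher and 1 lower by limma at the unadjusted p (1.69% called), below the 5.50% over all probes. The exception was Calr, a chaperone of antigen peptide loading, with 6.02, 7.08, 5.71 and 4.39 units in pioglitazone-treated mice and 7.64, 8.11, 8.38 and 6.66 units in vehicle-treated mice. The groups overlapped at pioglitazone mouse 2 and vehicle mouse 4, and the log2 fold change was -0.42 ± 0.17 (limma unadjusted p = 0.0362, adjusted p = 0.837). Of the 22 alternatives run, Calr was called in 12 and not called in 10, quantile normalization, cyclic loess, array weights and unequal variances among those 10. With the mouse number as a block, 5 partners were called, Mylip higher and Nr1h3, Calr, Alas1 and Scarb1 lower, at adjusted p = 0.575 in limma. These are 8.47% of the partners tested, against 8.60% of all probes called with the block, so that count too was close to its background. The ABC proteins with other symbols, the antigen peptide transporters Tap1 and Tap2 and the chloride channel Cftr, were not called. Tap2 averaged 5.97 units with pioglitazone and 8.14 units with vehicle, Tap1 0.669 units with pioglitazone and 0.762 units with vehicle, and Cftr 0.745 units with pioglitazone and 0.739 units with vehicle.

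Many ABC genes varied with the mouse number in both groups. In a limma fit with mouse number beside treatment, chosen after seeing the data, 13 of the 38 members (34.2%) differed by mouse number at an unadjusted p under 0.05, against 16.2% of all probes. By limma, 0 members passed an adjusted p under 0.05, the smallest being 0.0928 for Abcb6. The 13 were Abcb6, Abcc2, Abcc6, Abca9, Abcb1b, Abcd2, Abcc1, Abcg2, Abca7, Abcc3, Abcb8, Abcf1 and Abcg1. In 9 of the 13, mouse 1 was lowest in both groups, and in Abca9 it was highest in both. The 13 were picked from these same values for differing by mouse number. A mouse number extreme in both groups is thus partly built in, and these counts only describe the genes. The clearest was Abcb6, a porphyrin transporter, with 0.151, 0.664, 0.834 and 0.398 units in pioglitazone mice 1 to 4 and 0.181, 0.695, 0.711 and 0.604 units in vehicle mice 1 to 4. Mouse 1 alone lay under 0.2 units in each group. Abcb4, Abcc8 and Abcf2 were not among the 13. All pioglitazone mice lay on the same side of the vehicle mice of their number for Abcc6, Abcc2, Abca4, Abcd2, Abca9, Abcc5 and Abce1. The same held for Abcb4, Abcc8 and Abcf2, as it must where groups do not overlap. The share of all probes with this pattern was not counted, and the labels do not say what a shared number stands for.

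**Figure D4:**
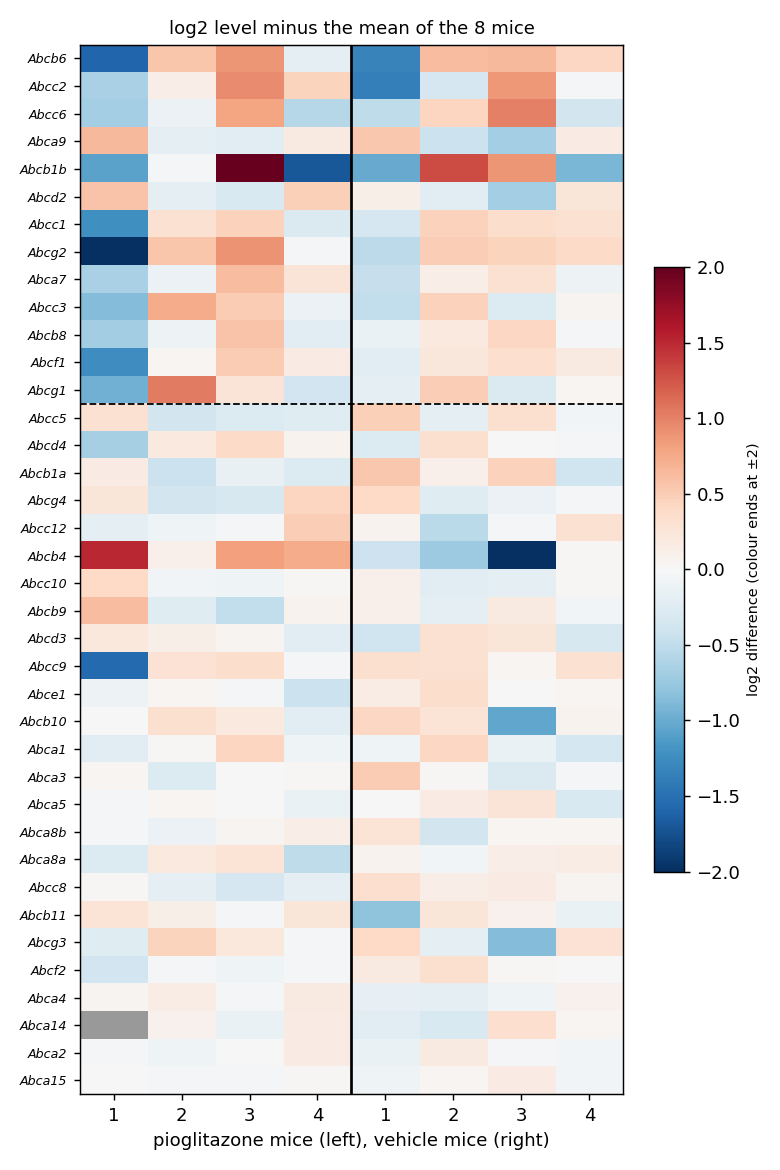
Log2 relative intensity of the 38 tested ABC genes in each mouse minus the mean of the 8 mice (colour, cut at 2 in each direction; grey is a missing spot), pioglitazone mice 1 to 4 on the left and vehicle mice 1 to 4 on the right, genes ordered by the p of mouse number. Above the dashed line are the 13 genes at an unadjusted p under 0.05, of which 9 are lowest in mouse 1 of both groups. The genes above the line were picked by that p, so their shared pattern is partly built in.

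Markers of ovarian cell types also varied between mice. The summed luteal markers were 131, 245, 323 and 235 units in pioglitazone mice 1 to 4 and 272, 371, 365 and 256 units in vehicle mice 1 to 4, highest in mice 2 and 3 of each group. All 5 luteal markers tested had negative log2 fold changes (median -0.83) and 0 were called by limma at the unadjusted p. For the luteal marker Ptgfr the direction depends on the scale (log2 fold change -0.05, ratio of means 1.32). All 7 granulosa markers were positive (median 0.35) and 1, Fst, was called higher. Over all tested probes, 5.50% were called in either direction and 44.3% had a log2 fold change above 0. The summed adipocyte markers were 125, 29.2, 35.8 and 15.4 units with pioglitazone and 29.1, 66.9, 37.4 and 26.2 units with vehicle, with pioglitazone mouse 1 far above the rest and 0 of 5 markers called (median 0.01). Macrophage markers summed to 63.8 to 92.0 units with pioglitazone and 77.7 to 113 units with vehicle (0 of 5 called, median -0.23). Endothelial markers summed to 30.0 to 43.2 units with pioglitazone and 33.9 to 47.0 units with vehicle, and 1 of 5 tested, Emcn, was called lower. Of the 7 oocyte markers tested, 1, Padi6, was called lower. Fewer cells of a type and less RNA per cell cannot be told apart in whole ovaries, and the part of these markers in the ABC values was not tested. With mouse 1 of both groups left out, an alternative chosen after seeing the data, Abcb4 had a log2 fold change of 1.48 and Abcc8 was not called (log2 fold change -0.35, limma unadjusted p = 0.0521).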

How the data were processed

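Ovarian RNA of 4 pioglitazone-treated and 4 vehicle-treated LY mice was measured on 1-colour CodeLink arrays. The deposited values are linear intensity values per probe, which the authors corrected for background and divided by the median of each slide (GeneSpring 7.0 is named in the submitters' processing notes). A division by each gene's own median, also named in the methods, was not seen in the values. The code -9999 was read as missing. Arrays were then rescaled to their own median and floored at 0.05, and the log2 of each value entered limma 3.58.1 (lmFit, eBayes) in R 4.3.3 over all probes with 3 or more values per group whose mean reached 0.2 in either group, with Benjamini-Hochberg adjustment. The fit was tested on simulated data. Fold values are ratios of arithmetic means. The number of arrays limits the precision.

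Probes were named from the platform annotation, and all 42 symbols are current in RefSeq (GRCm38.p6). The members, gene lists and tests were chosen with earlier results of these data known. Values of every mouse are given for Abcb4, Abca1, members called or with non-overlapping groups, members with known roles chosen by hand, and the 5 largest changes in each direction among members whose higher group averaged at least 0.5 units. Abcc2, Abcb6, Abcb11 and others outside this rule, the partner Mylip among them, were named after their values were seen. Arrays with the same mouse number correlated at 0.515, 0.181, 0.274 and 0.232 across probes after removal of group means, and 6 of 8 were best matched by their own number, so the number was used as a block in an alternative. Alternatives were other floors, quantile, cyclic loess and no scaling, other filters, an intensity trend, array weights, the methods' t-test, unequal variances, linear values, other probe choices, the block and each mouse left out. Untreated BL mice were not analysed here.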

Additional observations from a re-analysis of the deposited data

Results flagged for a closer look

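In 4 of the 38 groups of 4 mice looked at among the named ABC genes, 1 mouse lay far from the other mice of its group, and chance alone sets about 1 in 20 groups apart in this way. Abcb1b was highest in pioglitazone mouse 3, at 3.64 relative intensity units. Abcg2 was lowest in vehicle mouse 1, at 2.19 units. The brightest Abca3 probe was lowest in pioglitazone mouse 2, at 4.77 units, where the other mice of that group lay between 5.72 and 5.91. The second Abca3 probe did not share this, with 4.95, 4.92, 4.63 and 6.08 units in pioglitazone mice 1 to 4. Abcc9 was lowest in vehicle mouse 3, at 0.243 units, close to the limit of sensitivity of 0.2.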

How the results depend on the processing

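No probe passed an adjusted p of 0.05 in limma under any alternative run. Of the values computed for single named genes, 380 kept their direction and side of the threshold, 28 turned direction, 9 lost the call and 2 gained it. Most of these genes were called in no setting, so the 380 do not measure stability. The 2 ABC calls became 1 with quantile normalization, with cyclic loess, with at least 0.2 units in every array, with the mean over all probes of a gene and without mouse 1 of both groups, and were between 1 and 3 when each mouse was left out. With no filter on dim probes they became 3, as Abca16, under 0.2 units on all 8 arrays, was called lower. They were also 3 on linear values and under the replicate block. Calls over all probes numbered 1685, with 2635 under the replicate block and between 737 (without pioglitazone mouse 4) and 2443 (without pioglitazone mouse 1) when each mouse was left out. Of these calls 35.8% were higher with pioglitazone, against 46.4% after quantile normalization and 46.8% after cyclic loess. The 3 ABC genes with non-overlapping groups became 2 with quantile normalization and cyclic loess. Partner calls went to 5 under the block, which added Abcc2 among the ABC genes and changed no other ABC call. The genes whose direction turned were called in none of the settings run. With array weights the log2 fold changes were 0.13 for Abcc6, -0.076 for Abca9, 0.22 for Abcg1, 0.072 for Abcg2, 0.63 for Abcb1b and -0.051 for Abcd2. Abcg1 was at 0.013 with cyclic loess, and on linear values the differences were 0.16 units for Abcg1 and 0.347 units for Abcb1b. Without mouse 1 of both groups the log2 fold changes were 0.23 for Abcg1, 0.036 for Abcg2, -0.086 for Abcd3 and 0.013 for Abca3. Leaving out each mouse gave -0.37 to 0.30 for Abcg1, -0.18 to 0.30 for Abcb10, -0.76 to 0.28 for Abcg2, -0.030 to 0.21 for Abcd3, -1.0 to 0.41 for Abcb1b, -0.22 to 0.043 for Abca3, -0.054 to 0.23 for Abca1 and -0.072 to 0.35 for Abcg3. The cause of these shifts was not tested. Values near 0.2 units, as for Abcb4, Abcc2 and Abcc9, are limited by the array's sensitivity.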

Other observations

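In all, 8 ABC genes had more than 1 probe. The signs of the log2 fold change were the same across the tested probes of 4 of them (Abca3, Abca14, Abcc1 and Abcg4), differed for 2 (Abcc5 and Abcc8), and could not be compared for 2 with a single tested probe (Abca15 and Abcd2). Abcg4, whose brightest probe was level between groups, averaged 3.68 units with pioglitazone and 4.55 units with vehicle on its other probe, with a log2 fold change of -0.30 (limma unadjusted p = 0.0697). The dim second probe of Abcc1 averaged 0.175 units with pioglitazone and 0.277 units with vehicle. Mylip, a liver X receptor target that marks the LDL receptor for degradation, read 3.31, 4.39, 3.70 and 3.57 units with pioglitazone and 3.04, 3.31, 1.87 and 3.01 units with vehicle. Its groups did not overlap, by a narrow margin, and its log2 fold change was 0.44 ± 0.20 (limma unadjusted p = 0.0548). Over all probes with a value on every array, 1.45% had non-overlapping groups with pioglitazone higher. Mylip was called higher in some alternatives, quantile normalization and cyclic loess among them, but not in most. It was named after its values were seen.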
